A study of Homo sapiens with 96 samples.

Results

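The genes described here load and start replication origins or build the replication fork. They are ORC1, ORC6, CDC6 and CDT1, which license origins; CDC45, a part of the active helicase; and POLA1, PCNA, RFC3, RFC4 and FEN1, which work at the moving fork. They were chosen by name, and all 10 were found among the 19438 genes of each of the 8 deposited tables. U2-OS cells, a human osteosarcoma line carrying luciferase under the Per2 promoter, were profiled over 1 day by total RNA sequencing and by ribosome profiling, which sequences the mRNA fragments (footprints) protected by translating ribosomes. All cells were synchronised with 0.1 µM dexamethasone, a glucocorticoid that resets the cellular clock, and all were given cycloheximide at 100 µg/mL, which stalls ribosomes, before lysis. Collection began 24.5 h after synchronisation and was repeated every 2 h at 12 circadian times, CT00 to CT22. The wild-type group was grown without siRNA from 2250000 cells per plate; for the Bmal1 knockdown group, 560000 cells per plate were transfected with 120 pmol of pooled siRNAs against Bmal1 (gene symbol ARNTL), a transcription factor of the core clock. The labels name no control siRNA, so the effect of losing Bmal1 cannot be told apart from those of transfection and seeding density. Each treatment, assay and time had 2 replicates, which gives 24 libraries per treatment and assay and 96 in all; nothing states that replicates were separate cultures, so p-values measure the spread between these libraries.

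Before S phase, the origin recognition complex binds DNA at origins and, with CDC6 and CDT1, loads the MCM helicase in an inactive form. Kinases then help to recruit CDC45, which completes the active helicase; polymerase alpha, of which POLA1 is the catalytic subunit, lays down primers; the RFC complex loads the sliding clamp PCNA; and FEN1 trims the ends of lagging-strand fragments so that they can be ligated. Many of these genes are known as targets of E2F transcription factors, which are held back by RB family proteins in cells that do not divide, and their mRNAs are usually highest around the entry into S phase.

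ARNTL was at 32.5 ± 11.5 CPM (reads of a gene per 1e+06 reads of its library, after scaling; SD, n = 24) in wild-type total RNA and at 4.84 ± 0.71 CPM in knockdown total RNA; in footprints it was at 18.7 ± 7.31 and 0.658 ± 0.426 CPM. The range in total RNA was 14.3 to 47.9 CPM in wild-type and 3.36 to 6.49 CPM in knockdown libraries, so the groups did not overlap. Reads assigned to genes came to between 13.6 and 20.1 M (1 M is 1e+06 reads) in 46 total RNA libraries and to 2.66 and 2.56 M in the knockdown libraries of replicate 2 at CT14 and CT18; footprint libraries held 2.50 to 5.82 M. Among mesenchymal and bone markers, VIM, SPARC, THY1, COL1A1 and RUNX2 were present in every library, whereas TWIST1 was at 0 in all total RNA libraries and COL1A2 was near 0.1 CPM there. A set of 5 epithelial markers summed to 7.41 to 23.9 CPM in wild-type and 7.67 to 15.3 CPM in knockdown total RNA. A set of 4 blood cell markers summed to 1.57 to 3.38 CPM in wild-type and 9.84 to 17.6 CPM in knockdown total RNA; nearly all of this was CD68, which also occurs outside blood cells, at 2.09 ± 0.41 and 12.8 ± 2.38 CPM, while the T cell marker CD3E was at 0 in every total RNA library and PTPRC stayed at or below 0.709 CPM.

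The promoters of all 10 genes are shown first. Whether their sequences have a part in the members' changes was not tested. The stretches below are the 140 bases before a RefSeq start site in GRCh38.p14, 5′ to 3′ on the strand of the gene; all 10 genes were matched in the RefSeq promoter table. That table lists 3 start sites for CDC45 and 2 for PCNA, and for these genes the first one listed is shown. Capitals mark matches, on either strand, to 1 of the 4 E2F site spellings searched (TTTGGCGC, TTTCCCGC, TTTCGCGC, TTTGCCGC), to the shorter core TTTGGCG, which overlaps the first of them and was added after the sequences had been seen, or, in FEN1, to the E-box CACGTG, the letters that BMAL1 with its partner CLOCK is known to bind. ORC1, ORC6 and RFC4, the last 3, have none of these letters and so no capitals.
CDC6, chr17:40287739-40287878, + strand: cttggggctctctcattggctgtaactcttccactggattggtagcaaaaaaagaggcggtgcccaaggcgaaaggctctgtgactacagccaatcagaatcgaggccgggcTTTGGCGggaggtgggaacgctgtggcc
CDT1, chr16:88803649-88803788, + strand: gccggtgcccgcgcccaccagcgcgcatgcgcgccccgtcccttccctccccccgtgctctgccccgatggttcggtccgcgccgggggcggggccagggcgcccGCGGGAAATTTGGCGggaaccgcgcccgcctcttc
CDC45, chr22:19479780-19479919, + strand: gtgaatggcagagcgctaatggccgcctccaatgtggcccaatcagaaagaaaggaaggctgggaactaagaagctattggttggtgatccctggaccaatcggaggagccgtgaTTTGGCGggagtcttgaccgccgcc
PCNA, chr20:5126623-5126762, - strand: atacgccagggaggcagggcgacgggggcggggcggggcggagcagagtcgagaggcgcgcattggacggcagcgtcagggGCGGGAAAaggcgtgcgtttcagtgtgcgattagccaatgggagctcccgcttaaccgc
RFC3, chr13:33818009-33818148, + strand: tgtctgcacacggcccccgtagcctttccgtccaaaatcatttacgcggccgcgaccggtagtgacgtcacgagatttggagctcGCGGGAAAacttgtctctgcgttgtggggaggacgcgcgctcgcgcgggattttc
POLA1, chrX:24693778-24693917, + strand: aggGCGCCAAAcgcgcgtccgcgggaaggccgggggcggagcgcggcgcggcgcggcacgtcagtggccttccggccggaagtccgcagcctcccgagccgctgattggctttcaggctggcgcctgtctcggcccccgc
FEN1, chr11:61792771-61792910, + strand: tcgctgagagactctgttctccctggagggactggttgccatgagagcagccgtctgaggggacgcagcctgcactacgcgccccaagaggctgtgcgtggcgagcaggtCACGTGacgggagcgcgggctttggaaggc
ORC1, chr1:52404424-52404563, - strand: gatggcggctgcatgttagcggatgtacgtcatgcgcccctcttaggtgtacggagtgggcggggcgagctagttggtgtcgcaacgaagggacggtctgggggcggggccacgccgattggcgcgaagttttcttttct
ORC6, chr16:46689519-46689658, + strand: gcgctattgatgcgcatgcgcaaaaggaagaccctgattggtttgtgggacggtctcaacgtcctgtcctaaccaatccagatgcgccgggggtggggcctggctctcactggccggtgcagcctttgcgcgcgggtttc
RFC4, chr3:186806483-186806622, - strand: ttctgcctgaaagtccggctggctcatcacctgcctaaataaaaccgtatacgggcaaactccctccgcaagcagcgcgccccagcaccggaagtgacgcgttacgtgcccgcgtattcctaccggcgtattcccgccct
Within 250 bases before to 50 bases after a start site, a full E2F spelling occurred in 5 of the 10 genes (CDC6, CDT1, PCNA, POLA1 and RFC3) and in 3.99% of the 27305 genes in the table. In CDC6 that match begins 7 bases past the start site and lies outside the stretch printed. The shorter core occurred in CDC6, CDT1, CDC45 and POLA1, which makes 4 of 10, against 2.32% of all genes. In CDC6, CDT1 and CDC45 it sits at nearly the same distance, beginning at position -28, -27 and -25 from the start shown. The windows of the other CDC45 starts hold no match to the shorter core, and that of the other PCNA start holds no match to a full spelling. The E-box occurred in FEN1 alone of the 10 and in 8.78% of all genes; in FEN1 it begins at position -30. CCAAT, a general promoter element, occurred in 6 of 10 (CDC6, CDC45, ORC1, ORC6, PCNA and POLA1) and in 39.7% of all genes. A match of letters is a description of the sequence; binding was not measured in these libraries, and the shares take no account of base composition, which is 60.0% G or C over the 250 bases before the start in CDC6 and 76.4% in CDT1.

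All 10 genes were lower in Bmal1 knockdown than in wild-type cells, in total RNA and in footprints alike. As a mean over the 12 times, the knockdown level in total RNA ran from 85.7% of the wild-type level for PCNA down to 44.5% for ORC1. In the same fit 39.3% of the 14033 genes tested were called lower at an adjusted p under 0.05, and the median log2 difference was -0.75 over the 10 genes against 0.01 over all genes. In footprints the members' median was -0.78 against -0.01, and 37.8% of 11995 genes were called lower. These tests used limma on log2 CPM with adjustment over all genes; the adjusted p of the members was at most 2.55e-10 in total RNA and at most 9.09e-14 in footprints. When each series of 12 libraries was reduced to its mean and 2 were set against 2, all 10 were still called in both assays, with adjusted p up to 0.00639. A fall of RNA per cell and a smaller share of cells that express a gene cannot be told apart in bulk lysates.

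**Figure D1:**
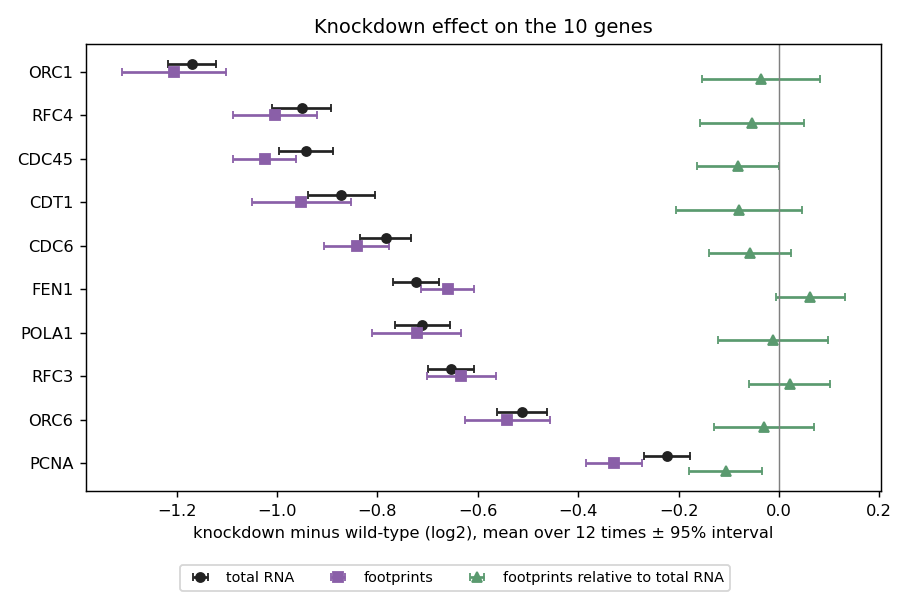
Difference between Bmal1 knockdown and wild-type cells for each gene (x axis, log2, mean over 12 times; bars are 95% intervals) in total RNA, in footprints and in footprints relative to total RNA, with genes on the y axis ordered by the total RNA value. Total RNA and footprint values lie below 0 for all 10 genes, from -1.17 (ORC1) to -0.22 (PCNA) in total RNA, and the relative values lie near 0.

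Among the licensing genes, ORC1, an ATP-binding subunit of the origin recognition complex, had the largest fall. In total RNA it ranged from 53.1 to 73.5 CPM (median 63.6) in the 24 wild-type libraries and from 19.8 to 44.2 CPM (median 26.4) in the 24 knockdown libraries. Every knockdown library was below every wild-type library. The log2 difference was -1.17 ± 0.02 (SE; limma adjusted p = 1.07e-28), which is 44.5% of the wild-type level. Its footprints ranged from 50.7 to 93.7 CPM (median 65.8) in wild-type and from 18.3 to 48.6 CPM (median 28.9) in knockdown libraries, again without overlap, and the log2 difference was -1.21 ± 0.05.

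ORC6, the smallest subunit of the same complex, fell less. Its total RNA spanned 56.5 to 81.2 CPM (median 69.0) in wild-type and 30.9 to 68.1 CPM (median 46.9) in knockdown libraries. These groups overlapped: 15 of 24 knockdown libraries lay below the lowest wild-type library. The log2 difference was -0.51 ± 0.03 in total RNA (limma adjusted p = 1.32e-18) and -0.54 ± 0.04 in footprints, where the medians were 73.65 and 49.7 CPM.

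CDC6, the ATPase that joins the origin recognition complex to load MCM, had 137 to 227 CPM (median 171) in wild-type and 70.2 to 156 CPM (median 94.6) in knockdown total RNA. The ranges overlapped, with 20 of 24 knockdown libraries below the lowest wild-type one. The knockdown level was 58.1% of wild-type in total RNA (log2 -0.78 ± 0.03, limma adjusted p = 2.00e-23) and 55.8% in footprints (-0.84 ± 0.03), whose medians were 183 and 91.6 CPM.

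CDT1, the MCM loading partner that is destroyed or bound by geminin once S phase has begun, had 61.5 to 84.1 CPM (median 71.7) in wild-type and 25.2 to 53.3 CPM (median 40.1) in knockdown total RNA, with no overlap. The log2 difference was -0.87 ± 0.03 (limma adjusted p = 1.50e-21). Its footprints, 108 to 175 CPM (median 132) in wild-type and 46.6 to 112 CPM (median 68.5) in knockdown libraries, differed by -0.95 ± 0.05, and 23 of 24 knockdown libraries were below the lowest wild-type library.

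CDC45, the helicase component loaded at the firing of an origin, had 128 to 202 CPM (median 152) in wild-type and 47.8 to 116 CPM (median 78.7) in knockdown total RNA. No library overlapped with the other treatment, and none did in footprints, where the ranges were 146 to 223 CPM (median 172) and 50.8 to 142 CPM (median 82.7). The log2 difference was -0.94 ± 0.03 in total RNA (limma adjusted p = 6.96e-25) and -1.02 ± 0.03 in footprints, so that the knockdown cells held 52.0% and 49.2% of the wild-type levels.

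At the fork, POLA1 had 47.9 to 60.3 CPM (median 53.3) in wild-type and 26.5 to 38.7 CPM (median 32.2) in knockdown total RNA. The groups did not overlap, and wild-type libraries varied little, with an SD of 2.93 CPM around a mean of 53.5. The log2 difference was -0.71 ± 0.03 (limma adjusted p = 3.58e-21), and it was -0.72 ± 0.05 in footprints, with medians of 94.4 and 55.1 CPM.

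PCNA, the clamp that tethers polymerases to DNA, was the member that fell least. Its total RNA ranged from 299 to 419 CPM (median 346) in wild-type and from 231 to 364 CPM (median 304) in knockdown libraries. The ranges overlapped widely, with 10 of 24 knockdown libraries below the lowest wild-type library. The log2 difference was -0.22 ± 0.02 in total RNA (limma adjusted p = 2.55e-10) and -0.33 ± 0.03 in footprints, where 12 of 24 knockdown libraries lay below all wild-type libraries and the medians were 587 and 479 CPM.

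Of the clamp loader subunits, RFC4 had the larger fall, with a 95% interval of -1.01 to -0.89 against -0.70 to -0.61 for RFC3. RFC4 had 74.0 to 99.8 CPM (median 82.6) in wild-type and 24.1 to 58.5 CPM (median 42.2) in knockdown total RNA, without overlap, a log2 difference of -0.95 ± 0.03 (limma adjusted p = 4.67e-24). RFC3 had 55.2 to 77.2 CPM (median 63.0) and 26.1 to 56.2 CPM (median 40.1), and 23 of 24 knockdown libraries were below the lowest wild-type library, a log2 difference of -0.65 ± 0.02 (limma adjusted p = 1.38e-22). In footprints the differences were -1.004 ± 0.042 for RFC4, again without overlap, and -0.63 ± 0.04 for RFC3, for which 17 of 24 knockdown libraries lay below all wild-type libraries.

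FEN1, the flap endonuclease, had 229.5 to 319 CPM (median 270.3) in wild-type and 110.0 to 219 CPM (median 165) in knockdown total RNA. No knockdown library reached the lowest wild-type value, and the log2 difference was -0.72 ± 0.02 (limma adjusted p = 1.34e-23). Its footprints differed by -0.66 ± 0.03, with medians of 285 and 173 CPM and 23 of 24 knockdown libraries below the lowest wild-type library.

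Counted over the set, the treatments did not overlap for 6 of 10 genes in total RNA (CDT1, CDC45, ORC1, FEN1, POLA1 and RFC4); 9.39% of all tested genes had every knockdown library below every wild-type library. In footprints this held for 3 of 10 (CDC45, ORC1 and RFC4), against 5.30% of genes. In total RNA the order of the falls was ORC1, RFC4, CDC45, CDT1, CDC6, FEN1, POLA1, RFC3, ORC6 and PCNA. Taken within each library, the difference between neighbours in that order had a 95% interval that included 0 for RFC4 and CDC45, CDT1 and CDC6, FEN1 and POLA1, and POLA1 and RFC3. The step from ORC1 to RFC4 was -0.22 (95% interval -0.29 to -0.15), and the step from ORC6 to PCNA was -0.29 (-0.35 to -0.23). The footprints also began with ORC1 and ended with RFC3, ORC6 and PCNA; the step from ORC1 to the next gene, CDC45, was -0.18 (-0.29 to -0.08).

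The difference between treatments was not the same at all times. It was smallest early in the day, but after CT00, and largest in the last hours, in both assays. At CT00 it was wider than at its narrowest for all 10 genes. Total RNA differences at CT00 were -0.36 for PCNA and -0.88 for CDC45, against 0.00 and -0.56 at CT06. In total RNA the smallest difference fell at CT02 to CT08 and the largest at CT18 to CT22 for all 10 genes; in footprints the smallest fell at CT02 or CT04 and the largest at CT16 to CT22. RFC4 total RNA in knockdown cells was 68.8% of the wild-type mean at CT06 and 37.8% at CT18. CDC45 moved from 67.9% at CT06 to 38.7% at CT20, and ORC1 from 58.3% at CT06 to 35.2% at CT20. PCNA was at 100.2% of wild-type at CT06 and at 76.0% at CT18, which makes it the only member not lower at 12 of 12 times in total RNA. The other 9 were lower at all 12 times, as were 26.9% of all tested genes; in footprints all 10 were, against 22.6%.

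**Figure D2:**
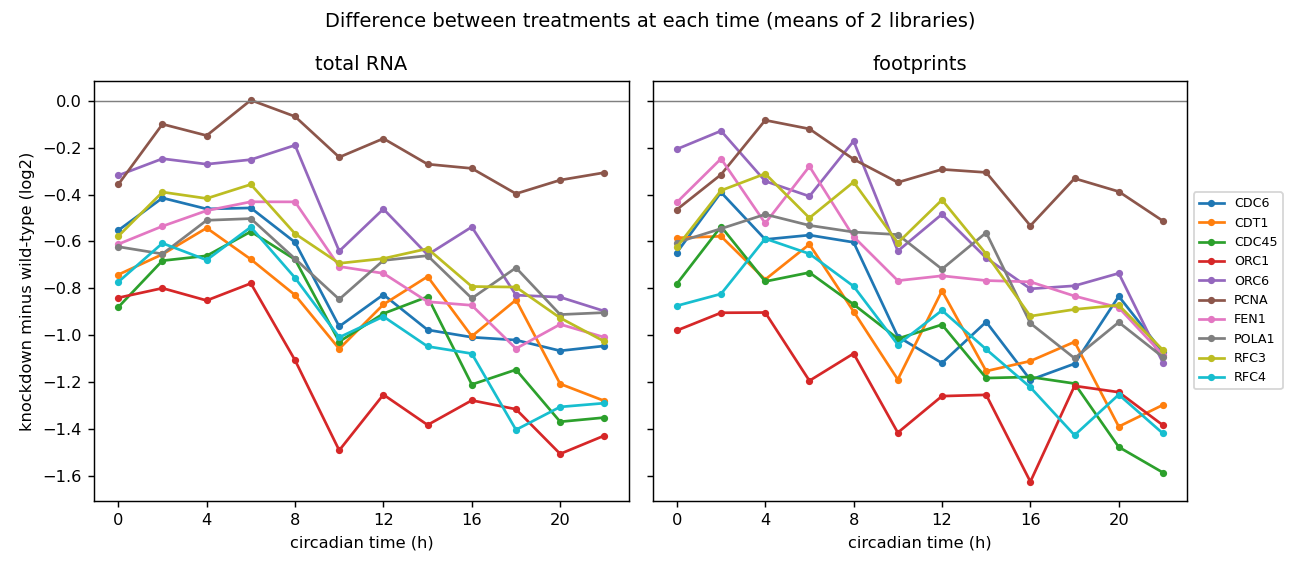
Knockdown minus wild-type (y axis, log2; each point compares the means of 2 libraries per treatment) against circadian time (x axis, h) for the 10 genes in total RNA (left) and footprints (right). In total RNA, lines lie between -0.32 (ORC6) and -0.88 (CDC45) at CT00 and between 0.00 (PCNA) and -0.85 (ORC1) at CT02 to CT06. They spread down to -1.51 (ORC1, CT20) late in the day, and PCNA stays highest at most times.

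The levels in each treatment show what lies behind this. In wild-type total RNA, 9 of 10 members were lower in the last 4 times (CT16 to CT22) than in the first 4 (CT00 to CT06), with 8 libraries in each part, by 0.16 (CDT1) to 0.29 (CDC45) on the log2 scale; 20.3% of 13654 genes were called lower in this comparison. The CDT1 value moved with the series kept: it was -0.039 (limma adjusted p = 0.492) without wild-type replicate 1 and -0.29 without wild-type replicate 2. POLA1 was the exception, with 54.3 ± 2.62 CPM early and 53.1 ± 3.61 CPM late (SD, n = 8), a log2 difference of -0.02 ± 0.04 (limma adjusted p = 0.690). In knockdown total RNA, all 10 fell, by 0.30 (POLA1) to 0.88 (CDC45), where 16.1% of 13736 genes were called lower. POLA1 lost this call without knockdown replicate 1 (-0.25); the other 9 kept it with either series left out. CDC6 went from 193.5 ± 21.7 to 156.5 ± 11.5 CPM in wild-type cells and from 139 ± 10.8 to 76.2 ± 5.39 CPM in knockdown cells. CDC45 went from 174 ± 16.8 to 141 ± 10.0 CPM in wild-type cells and from 107 ± 5.89 to 58.4 ± 6.91 CPM in knockdown cells. ORC6 went from 75.2 ± 3.87 to 61.4 ± 2.82 CPM and from 62.3 ± 2.60 to 35.9 ± 4.02 CPM, and its early knockdown mean lay within 1 SD of its late wild-type mean.

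**Figure D3:**
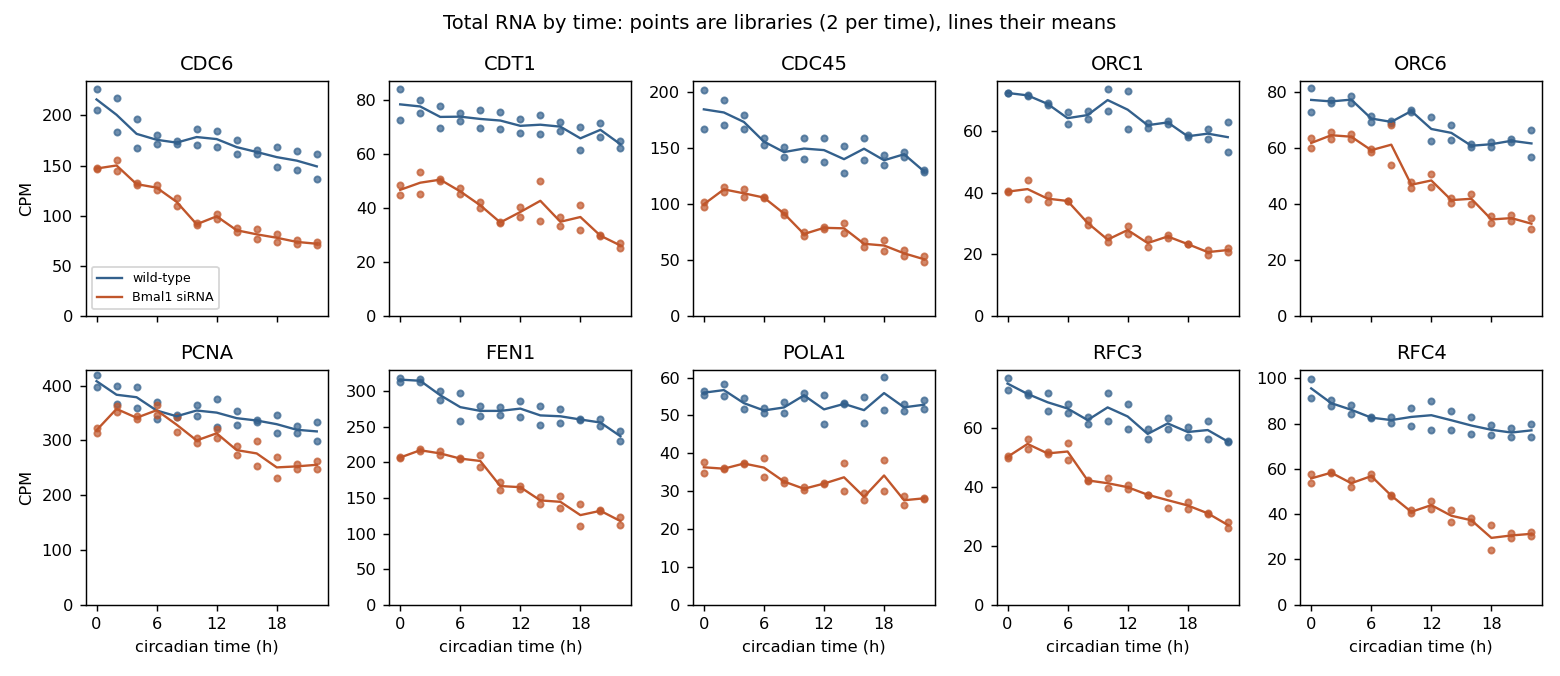
Total RNA level (y axis, CPM, starting at 0) of each gene against circadian time (x axis, h) in wild-type and Bmal1 siRNA cells; points are single libraries, 2 per time, and lines join their means. Knockdown lines start below the wild-type lines and fall further, except that PCNA lines meet at CT06; POLA1 is nearly level in wild-type cells.

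In wild-type footprints 6 of 10 members were lower late than early (CDC6, CDC45, ORC1, PCNA, FEN1 and RFC3), against 9.83% of 11841 genes, and CDT1, ORC6, POLA1 and RFC4 did not pass the test, with log2 differences of -0.14 ± 0.09, -0.16 ± 0.07, -0.03 ± 0.07 and -0.17 ± 0.07. Without wild-type replicate 1, ORC1 lost its call, and without wild-type replicate 2, PCNA, FEN1 and RFC3 did. Of all genes called in this comparison 53.0% were higher late, and 41.1% with the scaling as deposited. In knockdown footprints all 10 fell, by 0.40 (PCNA) to 0.98 (CDC45), against 11.4% of 11651 genes. CDC45 footprints went from 125 ± 11.8 to 63.2 ± 9.57 CPM in knockdown cells and from 203.5 ± 13.99 to 161 ± 7.37 CPM in wild-type cells. FEN1 footprints went from 239 ± 8.32 to 143 ± 11.5 CPM and from 310.4 ± 30.8 to 265 ± 12.9 CPM, in the same order of treatments.

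**Figure D4:**
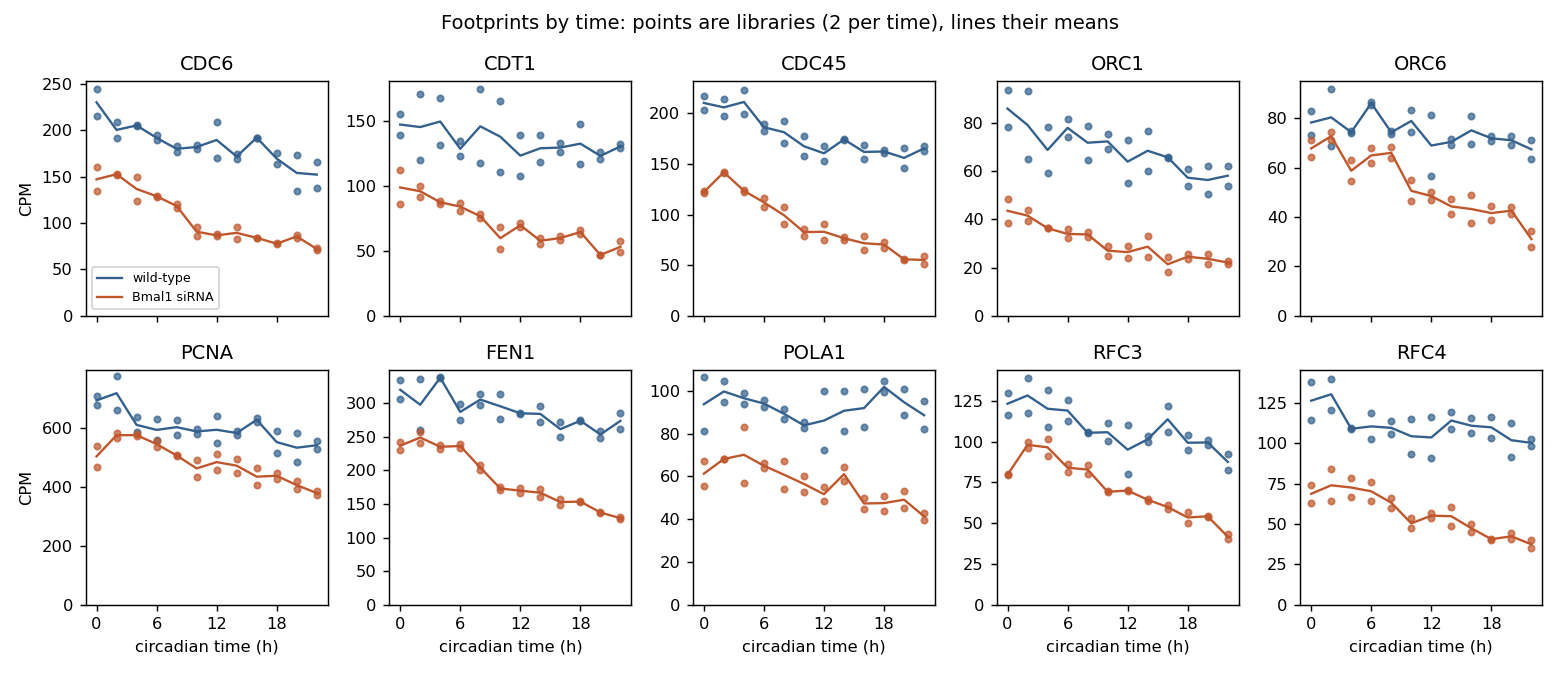
Footprint level (y axis, CPM, starting at 0) of each gene against circadian time (x axis, h), drawn as for total RNA; points are single libraries. All 10 genes lie lower in knockdown cells at every time as means of 2 libraries.

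The test of the difference itself, the late-minus-early change in knockdown minus that in wild-type cells, was called for 10 of 10 genes in total RNA, all with a further fall in knockdown cells, against 9.88% of all genes called in that direction. The extra fall was largest for RFC4, at -0.62 ± 0.08 (limma adjusted p = 1.91e-07), and it was -0.57 ± 0.08 for CDC45, -0.56 ± 0.08 for both ORC1 and CDC6, and -0.18 ± 0.06 for PCNA (limma adjusted p = 0.0301). The PCNA call was lost when any single replicate series was left out, CDT1 lost its call without wild-type replicate 2 or knockdown replicate 1, and POLA1 lost its call without wild-type replicate 1 or knockdown replicate 1; 7 to 9 members were called in these fits. In footprints 8 of 10 were called, against 4.84% of genes, from -0.48 ± 0.10 (POLA1) to -0.66 ± 0.10 (CDC45); ORC1 had -0.37 ± 0.13 (adjusted p = 0.0571) and PCNA -0.20 ± 0.08 (adjusted p = 0.103), both by limma. Without knockdown replicate 1, 5 members kept a call in footprints.

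**Figure D5:**
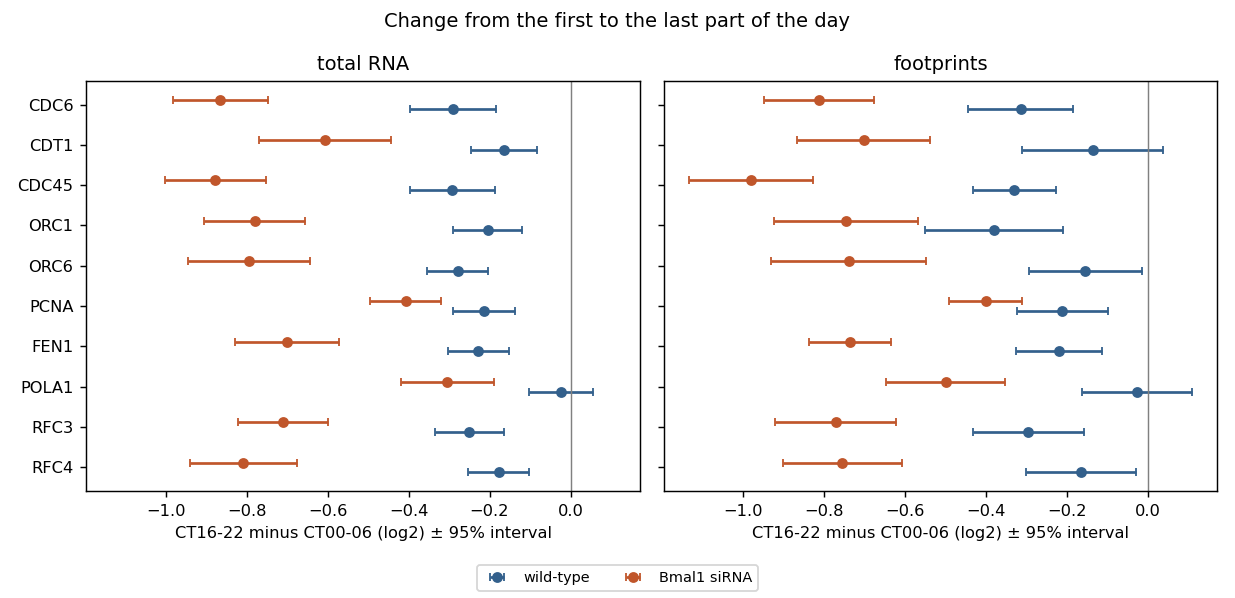
Change from CT00-06 to CT16-22 (x axis, log2; bars are 95% intervals; 8 libraries per part of the day) for each gene (y axis) in wild-type and Bmal1 siRNA cells, in total RNA (left) and footprints (right). Knockdown values lie further below 0 than wild-type values for each gene, at -0.88 against -0.29 for CDC45 total RNA, and POLA1 in wild-type cells is close to 0.

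A 24 h cosine wave was also fitted, since circadian variation is the question of a time course of this kind. In wild-type total RNA 4 of 10 members were called (CDC45, ORC1, ORC6 and RFC3), against 21.1% of genes, with amplitudes of 0.10 to 0.14 on the log2 scale and peaks between CT 3.3 and CT 5.8. With 1 wild-type series left out, 0 to 7 members were called, so all 4 lost the call in 1 of these fits. In wild-type footprints only CDC45 was called, against 6.41% of genes, with an amplitude of 0.18 ± 0.03 and a peak at CT 3.5. CDC45 lost this call in a fit with 1 wild-type series left out. In knockdown cells all 10 were called in total RNA, against 31.5% of genes, and all 10 in footprints, against 16.7%. Without knockdown replicate 1, CDT1, CDC45 and POLA1 lost the call in total RNA (limma adjusted p = 0.402, 0.0654 and 0.769), and CDT1, CDC45, ORC6 and POLA1 in footprints; without knockdown replicate 2, CDC45 and POLA1 lost it in footprints. The total RNA amplitudes there ran from 0.13 (POLA1) to 0.44 (CDC6), with peaks between CT 4.3 and CT 5.8, and the footprint amplitudes from 0.20 (PCNA) to 0.48 (CDC45). When a straight line over the day was added to the fit, none of the 10 kept a wave call by limma in either treatment or assay. Over 1 day a wave cannot be told apart from a drift, so these calls describe levels that were higher in the earlier part of the day.

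With the replicate number as a block in wild-type total RNA, where replicates of 1 number deviated together, PCNA was also called (adjusted p = 0.0459 by limma) and the calls over all genes went from 2882 to 4909. The wave itself changed with the treatment for 8 of 10 members in total RNA, against 10.0% of genes, and for 5 of 10 in footprints, against 3.48%; CDT1 and POLA1 in total RNA, and CDT1, CDC45, ORC1, ORC6 and PCNA in footprints, did not pass. Without the 2 shallow knockdown libraries, PCNA lost this call in total RNA, and CDT1 and POLA1 gained it. No member was called for it once the straight line was added, or in either assay without wild-type replicate 1.

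Footprints relative to total RNA, the translational efficiency, changed little. PCNA alone was called, at -0.11 ± 0.04 (limma adjusted p = 0.0249), against 29.5% of 11947 genes called in either direction. That call was lost with DESeq2 size factors (adjusted p = 0.0521), with the scaling as deposited (log2 -0.00, adjusted p = 0.936), with series means (adjusted p = 0.425) and without wild-type replicate 2 or either knockdown replicate. For the other 9 the estimates ran from -0.08 (CDC45) to 0.06 (FEN1), and the 95% intervals of all 10 lay within -0.20 to 0.13. The fit behind these calls and intervals did not pair total RNA with footprint libraries. Their replicate deviations at the same treatment and time had a median correlation of 0.23 (-0.0015 to 0.43, 24 pairs). With the scaling as deposited, FEN1 and RFC3 were called higher, at 0.16 and 0.12, and 7 members that had been just below 0 came out just above it; of all genes called, 41.9% were higher with the main scaling, 79.8% with the scaling as deposited and 31.7% with series means.

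In wild-type cells the ratio of footprint to total RNA CPM put CDT1 (log2 0.91 ± 0.19, SD, n = 24), POLA1 (0.78 ± 0.13), PCNA (0.77 ± 0.08) and RFC3 (0.75 ± 0.14) between the 82.2 and 86.7 percentile of all genes. RFC4 stood at the 70.7 percentile, and the remaining 5 between 56.8 and 62.9. This ratio was not corrected for the stretch of each transcript that an assay covers, which can differ between footprints and total RNA. These 5 were CDC6, CDC45, ORC1, ORC6 and FEN1, and their log2 ratios lay between 0.07 and 0.22, above the median of -0.10 over all genes.

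The other subunits of the members' own complexes, singled out here after their values were seen, did not all move alike. In the origin recognition complex, total RNA differences were -1.17 for ORC1, -0.51 for ORC6, -0.46 for ORC3 and -0.25 for ORC4, while ORC5 rose by 0.14 and ORC2 by 0.24, both called by limma under each of the 3 scalings. In footprints ORC2 was at 0.11 (adjusted p = 0.0256) and ORC5 at 0.03 (adjusted p = 0.598, called only with the scaling as deposited). In the clamp loader all subunits fell, from -0.95 for RFC4 and -0.65 for RFC3 to -0.54 for RFC5, -0.53 for RFC2 and -0.21 for RFC1, the largest subunit. In polymerase alpha-primase, the primase subunit PRIM1 fell by 0.78, POLA1 by 0.71, POLA2 by 0.60 and the second primase subunit PRIM2 by 0.36 on the log2 scale.

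Of 16 other genes of origin licensing and firing that were tested, 14 were lower and 2 (ORC2 and ORC5) higher in knockdown total RNA, with a median log2 difference of -0.59. Over all tested genes, 39.3% were called lower and 41.2% higher. The largest falls were in CLSPN, the checkpoint mediator claspin (-1.29 ± 0.03), MCM10, which helps to activate the helicase (-0.96 ± 0.02), and MTBP, a firing factor (-0.89 ± 0.03). In footprints 14 of the 16 were lower and 1 higher, where 37.8% of all genes were lower and 36.6% higher.

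Of 7 genes that control CDT1 protein, 4 were lower and 2 higher in total RNA, where 39.3% of all tested genes were called lower and 41.2% higher. In footprints 4 were lower and 3 higher, CUL4A among them at 0.08, where 37.8% of all genes were lower and 36.6% higher. GMNN, which encodes the CDT1 inhibitor geminin, fell by 0.78 on the log2 scale, CUL4B by 0.66, and DTL, the adaptor that recruits CDT1 bound to PCNA for destruction, by 0.64. The higher ones were FBXO31, at 0.29, and DDB1, at 0.08, and CUL4A did not pass in total RNA (0.01, limma adjusted p = 0.666). CDT1 and its inhibitor geminin thus both had lower mRNA, at -0.87 and -0.78.

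Of 27 other fork genes, 23 were lower and 3 higher in total RNA, with a median of -0.53, where 39.3% of all tested genes were lower and 41.2% higher. ATAD5, which unloads PCNA (-0.90 ± 0.03), DNA2, a nuclease acting on flaps (-0.86 ± 0.03), and PRIM1 (-0.78 ± 0.03) fell furthest. The higher ones were small subunits of the replicative polymerases, POLD4 (0.61 ± 0.05), POLE4 (0.26) and POLD2 (0.04, called by limma under 2 of the 3 scalings, with an adjusted p of 0.0596 under the other). In footprints 23 of the 27 were lower and 2 higher, where 37.8% of all genes were lower and 36.6% higher. From early to late in knockdown total RNA, 13 of the 16 origin genes and 20 of the 27 fork genes were called lower, against 16.1% of all genes. In that comparison 1 fork gene was called higher. The further fall relative to wild-type cells was called for 8 of the origin genes and 14 of the fork genes, against 9.88% of all genes. The opposite change was called for 1 origin gene. Of all genes called for that change, 49.1% went in the opposite direction.

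Of 12 genes that set or mark the state of the cell cycle, 9 were lower and 2 higher in knockdown than in wild-type cells, in total RNA and in footprints. Of all tested genes, 39.3% were lower and 41.2% higher in total RNA, and 37.8% and 36.6% in footprints. E2F1 and E2F2, activators of S phase genes, had total RNA differences of -1.16 ± 0.03 and -1.98 ± 0.05, and E2F8, a repressor of the family, -1.16; E2F7, the other such repressor, rose by 0.44. RB1 and RBL1, which encode RB family proteins, were also lower, at -0.23 ± 0.03 and -0.83 ± 0.03, and so was CCND1, the G1 cyclin D1, at -0.48 ± 0.04. CCNE2, a cyclin of S phase entry, fell by 1.503 on the log2 scale, whereas its paralog CCNE1 did not pass (-0.02 ± 0.03, limma adjusted p = 0.472). CDKN1A, the inhibitor p21, rose by 1.81 ± 0.04, from 213 ± 21.97 to 749 ± 63.8 CPM (SD, n = 24), and CDKN1B, the inhibitor p27, fell by 1.25. MKI67, a marker of cycling cells, went from 182 ± 18.3 to 108 ± 26.3 CPM, a log2 difference of -0.79 ± 0.06. Their part in the members' falls was not tested.

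Over the 45 pairs of members the median Pearson correlation of log2 CPM was 0.76 in wild-type and 0.91 in knockdown total RNA (24 libraries each), and 0.50 and 0.88 in footprints; the points share libraries, depth and the trend over the day, so these are descriptions. POLA1 followed the others least in wild-type total RNA, down to 0.07 with CDT1. In wild-type footprints the lowest pair, CDT1 and ORC6, was at -0.27. The genes whose total RNA followed the members' mean most closely over 48 libraries, each treatment centred on its own mean, were MASTL (0.97), DTL (0.97), MCM10 (0.97), EXO1 (0.97), ATAD2 (0.97), ESCO2 (0.96), POLA2 (0.96), MCM4 (0.96), HIST1H2BJ (0.96) and RFC2 (0.96). In footprints they were MCM10 (0.97), ATAD2 (0.95), CLSPN (0.95), MCM4 (0.94), DSN1 (0.94), RFC2 (0.93), WDHD1 (0.92), RFC5 (0.92), MASTL (0.92) and CDC25A (0.91). The median over all genes was -0.01 in total RNA and 0.00 in footprints. For the genes named, correlations were lower within wild-type than within knockdown libraries. In total RNA they ran from 0.75 (HIST1H2BJ) to 0.96 (EXO1) within wild-type and from 0.97 to 0.99 within knockdown libraries. In footprints they ran from 0.63 (WDHD1) to 0.90 (MCM10) and from 0.94 to 0.99.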

How the data were processed

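Total RNA and footprint libraries were compared between wild-type and Bmal1 knockdown cells. The submitters' processing notes name STAR 2.3.0e, HTSeq 0.5.4p1, DESeq2 (no version) and the build GRCh37 (hg19). Whether counting used strand is not given in the sources used here. What the authors deposited is a normalised signal: reads per gene over a library-wide factor. Within 0.001 read, 100% of values were whole multiples of 1 step per library, so reads were recovered from them. Columns carry the time alone, and the rest of a library's identity comes from its table.

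Levels are CPM after TMM scaling within each assay (edgeR 4.0.16). Tests used limma 3.58.1 (trend, robust) in R 4.3.3 on log2(CPM + 0.25), a scale that understates changes of low genes, after filterByExpr with a minimum count of 10, with Benjamini-Hochberg adjustment over all genes in each of 15 comparisons and a threshold of 0.05. Knockdown effects compared means over 12 times; efficiency was the interaction of treatment and assay; waves had a 24 h period. A test on the recovered reads with edgeR's quasi-likelihood method called 11371 genes for the knockdown effect in total RNA and 8932 in footprints, where limma called 11290 and 8917. Alternatives were DESeq2 1.42.0 (Wald test and size factors), the scaling as deposited, a pseudocount of 1 CPM, no filter, the replicate block, each replicate series left out, series means, an added linear drift and the 2 shallow libraries left out. The fits were also run on simulated counts in which libraries varied independently. That check cannot show how the fits behave where libraries of a series deviate together.

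The 48 replicate pairs differed beyond counting error (chi-square over degrees of freedom 1.38 to 10.3), so none was counted as a duplicate. In wild-type total RNA, libraries with the same replicate number at different times had deviations correlated by 0.37 to 0.65, over 66 pairs of times. The numbers thus pair those libraries. The same correlation had a median of 0.19 (-0.01 to 0.41) in wild-type footprints. In knockdown libraries its median was 0.03 (-0.15 to 0.52) in total RNA and 0.01 (-0.13 to 0.13) in footprints. Between treatments at the same time the correlation was -0.15 to 0.17 in total RNA and -0.05 to 0.15 in footprints. The numbers thus do not pair wild-type with knockdown libraries.

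The members and gene lists (markers, other origin genes, regulators of CDT1, other fork genes, cell cycle state) were chosen with earlier results of these data known. Named beside the members are the 3 largest called changes of a list in total RNA, members called against its majority, the cell cycle state genes, and the 10 genes most like the members' mean. TICRR was not used here. Promoters came from RefSeq (GRCh38.p14), a build other than that of the alignment, and were matched by symbol. Counting precision is limited by depth: the lowest read count of a member in a library was 60 in total RNA and 66 in footprints, both in ORC1.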

Additional observations from a re-analysis of the deposited data

Results flagged for a closer look

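For each value below, a member's change over the day differed between wild-type and knockdown cells in a test of the difference itself (limma, interaction term, adjusted p under 0.05). The late-minus-early change in knockdown minus that in wild-type total RNA was -0.56 for CDC6, -0.43 for CDT1, -0.57 for CDC45, -0.56 for ORC1, -0.50 for ORC6, -0.18 for PCNA, -0.46 for FEN1, -0.27 for POLA1, -0.45 for RFC3 and -0.62 for RFC4, on the log2 scale. In footprints it was -0.50 for CDC6, -0.57 for CDT1, -0.66 for CDC45, -0.59 for ORC6, -0.52 for FEN1, -0.48 for POLA1, -0.48 for RFC3 and -0.60 for RFC4.

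The difference between the treatments' 24 h waves had an amplitude in total RNA of 0.32 for CDC6, 0.32 for CDC45, 0.30 for ORC1, 0.28 for ORC6, 0.15 for PCNA, 0.29 for FEN1, 0.23 for RFC3 and 0.34 for RFC4, on the log2 scale. In footprints it was 0.32 for CDC6, 0.25 for FEN1, 0.27 for POLA1, 0.29 for RFC3 and 0.34 for RFC4. The late-minus-early and wave tests use the same libraries, so each gene's pair of values is not independent.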

How the results depend on the processing

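The knockdown effects of all 10 genes in total RNA and footprints kept their direction and call in each of 250 gene-level values under the alternatives run, with log2 differences between -1.25 and -0.20. Of 1510 gene-level values in all comparisons, 1343 kept direction and side of the threshold, 131 lost the call, 22 gained it and 14 changed sign. Efficiency counts of members called went from 1 to 0 with DESeq2 size factors, 2 with the scaling as deposited, 0 with series means and 0 to 1 with a replicate series left out; over all genes they went from 3530 to 186 with series means and to 2012 to 3606 with a series left out. Efficiency values that changed sign were, with the scaling as deposited, CDC6 0.043, CDT1 0.022, CDC45 0.019, ORC1 0.065, ORC6 0.071, POLA1 0.089 and RFC4 0.048; POLA1 was 0.0044 with DESeq2 size factors and 0.015 without the 2 shallow libraries. With a series left out they ranged from -0.079 to 0.019 (ORC6), -0.077 to 0.0062 (ORC1) and -0.068 to 0.044 (POLA1), and the late-minus-early value of POLA1 in wild-type total RNA from -0.078 to 0.033.

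With a linear drift added, the members called for a wave, or for its change, fell to 0 in each of these 6 tests, and all genes called fell to 24 (wild-type total RNA), 7 (wild-type footprints), 575 (knockdown total RNA), 259 (knockdown footprints), 151 (change, total RNA) and 68 (change, footprints). Wild-type total RNA waves had 2 members called without the filter, and 4909 genes with the replicate block. Wild-type footprint waves had 2 members called with DESeq2 size factors, the scaling as deposited, edgeR or the replicate block, which also moved all genes from 759 to 1357. The change of wave in footprints had 2 members with the scaling as deposited and 3 without the filter. The replicate block changed no other count by over 1.5 times.

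With each replicate series left out in turn, members called ranged from 0 to 7 (wild-type total RNA wave), 7 to 10 (knockdown total RNA wave), 8 to 9 and 9 to 10 (late minus early in wild-type and knockdown total RNA), 0 to 2 (wild-type footprint wave), 3 to 5 (wild-type footprints, late minus early), 6 to 8 (knockdown footprint wave), 0 to 7 (change of wave, total RNA), 0 to 2 (change of wave, footprints) and 5 to 9 (change of late minus early, footprints). All genes called ranged, for waves, from 1559 to 2730 and 135 to 467 in wild-type and from 1103 to 1944 and 445 to 792 in knockdown total RNA and footprints, and for the change of wave from 625 to 1040 and 40 to 356. For late minus early they ranged from 1344 to 1550 (wild-type footprints), 1307 to 3177 and 857 to 2052 (knockdown total RNA and footprints), and 1332 to 2127 and 419 to 917 (its change). Such fits have fewer libraries; otherwise the cause was not tested. Of genes called for the knockdown effect in footprints, 49.2% were higher, and 60.9% with the scaling as deposited.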
